A study of Mus musculus with 2 samples.

Results

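Transforming growth factor beta (TGF-beta) ligands, receptors and targets were followed across the cell types of the inflamed mouse colon. They are 10 genes, Tgfb1, Tgfb2, Tgfb3, Tgfbr1, Tgfbr2, Tgfbi, Ltbp1, Smad7, Thbs1 and Ctgf, taken by symbol from 2 single-cell RNA-seq matrices. All 10 were listed in both libraries, among 23197 genes listed in both. One library came from C57BL/6 mice labelled Elf-1 KO (Elf-1-/-, called KO-labelled below) and 1 from C57BL/6 WT mice. Mice of both groups were 8-10 weeks old and had been given DSS (dextran sulfate sodium), an epithelial irritant used to model colitis. Each library pooled colonic cells of 3 mice from proximal colon, distal colon and rectum, with no map from cells to mice, and no group without DSS was analysed here. The sources used here give neither the DSS dose and duration nor the deleted part of the gene.

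TGF-beta ligands are secreted as latent complexes in which a latent TGF-beta binding protein such as Ltbp1 ties the ligand to the matrix. Thrombospondin 1, the product of Thbs1, is among the proteins that can release the active ligand, as are integrins. The ligand binds the type II receptor Tgfbr2, which activates the type I receptor Tgfbr1 and through it the SMAD transcription factors. Smad7 is an inhibitory SMAD that the signal itself induces, and Tgfbi and Ctgf encode secreted matrix proteins known as targets, as is Thbs1. In the gut the pathway is known for limiting lymphocyte responses and for driving matrix production in fibroblasts. On GRCm38 (GENCODE M21, all protein coding), the ligand genes were Tgfb1 (ENSMUSG00000002603) chromosome 7, 25687002 to 25705077 on the plus strand; Tgfb2 (ENSMUSG00000039239) chromosome 1, 186622792 to 186705989 on the minus strand; and Tgfb3 (ENSMUSG00000021253) chromosome 12, 86056745 to 86079041 on the minus strand. The receptor genes were Tgfbr1 (ENSMUSG00000007613) chromosome 4, 47353222 to 47414931 on the plus strand; and Tgfbr2 (ENSMUSG00000032440) chromosome 9, 116084293 to 116175360 on the minus strand. The others were Ltbp1 (ENSMUSG00000001870) chromosome 17, 75005568 to 75392512 on the plus strand, Thbs1 (ENSMUSG00000040152) chromosome 2, 118111876 to 118127133 on the plus strand, Smad7 (ENSMUSG00000025880) chromosome 18, 75367529 to 75395935 on the plus strand, Tgfbi (ENSMUSG00000035493) chromosome 13, 56609523 to 56639562 on the plus strand, and Ctgf (ENSMUSG00000019997) chromosome 10, 24595442 to 24598683 on the plus strand, where the annotation calls Ctgf Ccn2.

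After filtering, 9474 KO-labelled cells and 7718 WT cells remained, with 37261926 and 29823446 UMIs (unique molecular identifiers, each counting 1 captured RNA molecule) and medians of 2636 and 2022.5 UMIs per cell. With 1 library per group no difference was tested. Every interval in parentheses is a 95% interval for counting error only and does not cover the spread between mice. Levels are in CPM, meaning that the UMIs of a gene, summed over the cells of a class, were divided by the summed UMIs of all genes there and scaled, so that classes of different depth can be set side by side. Ratios are KO-labelled over WT. A gene is counted as 2-fold higher or lower in a class where it had at least 50 UMIs over both libraries, a ratio at least 2-fold from 1 and an interval that excludes 1. Elf1 RNA stood at 181 (177 to 185) CPM over all KO-labelled cells and 192 (187 to 197) CPM over all WT cells, which checks nothing about a deletion whose position is not known. The libraries shared 57 barcodes, and 44 kept cells of each library carried such a barcode. All 15 differences past 2-fold given below stayed past it without those cells.

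Class names stand for cells that resemble the type by marker genes. The same class was often made of different clusters in each library, which bears on most ratios below. Fibroblasts numbered 2786 KO-labelled and 1224 WT cells. Of these, 1345 KO-labelled and 105 WT cells lay in cluster 4 (led by Ccl11, Cxcl5 and Il11), and 898 KO-labelled and 65 WT cells lay in cluster 18 (led by Mmp10 and Mmp13), both inflamed by their markers. Cluster 26, homeostatic by Wnt4 and Adamdec1, held 9 KO-labelled and 865 WT cells. Smooth muscle cells and pericytes lay mainly in cluster 15 among KO-labelled cells (1038 cells, against 81 WT cells) and mainly in cluster 16 among WT cells (249 cells, against 14 KO-labelled cells). Markers of this class summed to 5993 CPM in its KO-labelled cells and 22252 CPM in its WT cells, and the 20 fibroblast markers to 31264 and 14364 CPM, so the KO-labelled side of the class carried more fibroblast than muscle marker RNA. The 70 KO-labelled epithelial cells were mostly enteroendocrine (57 in cluster 23), whereas 895 of the 1047 WT epithelial cells were absorptive (cluster 27) and 130 were goblet cells (cluster 28). No epithelial cluster held enough cells of both libraries for a ratio, so every epithelial ratio below sets enteroendocrine-rich cells against absorptive and goblet cells. Cluster 23 held 22 WT cells, and the genes are not compared within that cluster here. Of the B cells, 73.4% of KO-labelled and 12.4% of WT cells lay in cluster 10, and 26.6% of KO-labelled and 87.6% of WT cells in cluster 11. The T and innate lymphoid class also differed in makeup. A subcluster led by Mmp3, Ramp3 and Saa3 held 300 KO-labelled and 14 WT cells, gamma delta T cells numbered 105 KO-labelled and 6 WT cells, and a CD8 subcluster with Cd160 and Itga1 among its leading genes held 1 KO-labelled and 119 WT cells.

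The genes differed in where they were highest, and the leading class was the same in both libraries for 8 of the 10 genes. Macrophages and monocytes had the highest levels of Tgfbi and Thbs1, endothelial cells of Tgfb3, fibroblasts of Tgfbr1, smooth muscle cells and pericytes of Ltbp1, glia of Tgfb2 and B cells of Smad7. The leading class of Tgfb1 was endothelium in KO-labelled cells, next to macrophages within counting error, and macrophages in WT cells. For Tgfbr2 it was smooth muscle cells and pericytes in KO-labelled cells and endothelium in WT cells. Ctgf was highest in glia in both libraries, from 19 UMIs in 13 KO-labelled glia and 51 UMIs in 11 WT glia. Some neighbours in these orders did not differ beyond counting error. They were glia and muscle for Ctgf in KO-labelled cells, fibroblasts and muscle for Tgfbr1 in both libraries, B and T cells for Smad7 in both libraries, and macrophages and neutrophils for Thbs1 in WT cells. In the glial class, glial markers summed to 5170 CPM in KO-labelled and 6316 CPM in WT cells. Fibroblast markers there summed to 8606 and 3887 CPM, and macrophage markers to 8358 and 12988 CPM. The part of such RNA in the glial levels was not tested.

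**Figure D1:**
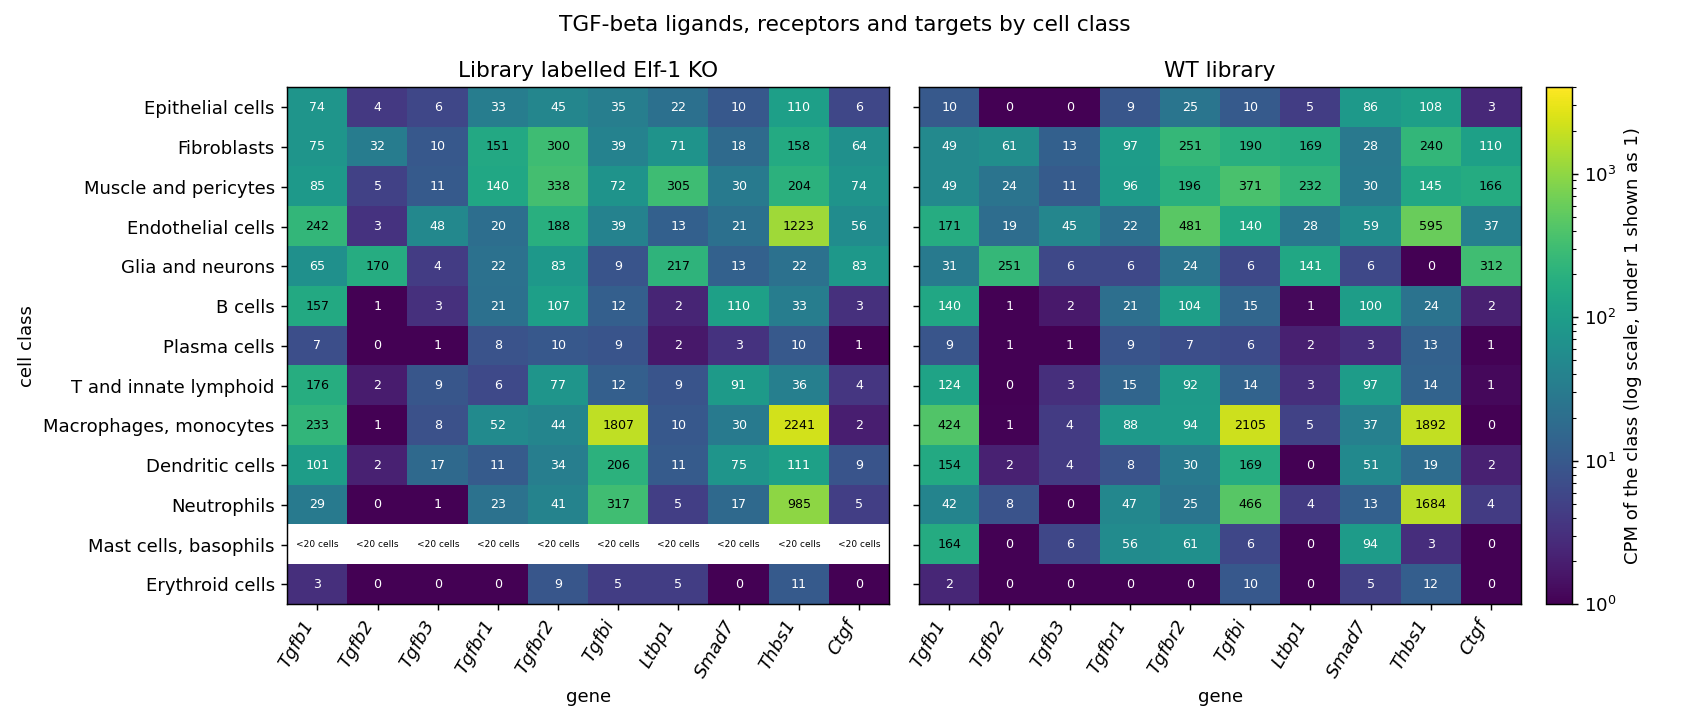
Levels of the 10 genes in each cell class, KO-labelled library on the left and WT library on the right. Rows are classes, columns are genes, and colour and printed number give CPM on a log colour scale; classes under 20 cells are blank. Thbs1 and Tgfbi are brightest in macrophages (2241 and 1807 CPM in KO-labelled cells, 1892 and 2105 CPM in WT cells), and Tgfb2 stands out in glia and fibroblasts.

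The sources of the RNA followed both level and cell number. Fibroblasts supplied 70.0% of KO-labelled and 45.9% of WT Tgfbr2 UMIs, and 87.8% of KO-labelled and 77.7% of WT Tgfb2 UMIs. Macrophages supplied 49.6% of KO-labelled and 52.4% of WT Thbs1 UMIs. For Thbs1 the neutrophils, of which there were 1257 KO-labelled and 165 WT cells, added 16.3% of KO-labelled and 5.75% of WT UMIs. For Tgfb1 the KO-labelled UMIs came first from fibroblasts (34.9%) and then macrophages (23.3%), and the WT UMIs first from macrophages (34.4%) and then B cells (20.1%). For Smad7 the epithelium gave 0.514% of KO-labelled UMIs and 37.9% of WT UMIs, where it was the first source. Over all cells the ratio was 2.39 (2.23 to 2.56) for Tgfbr1, 1.86 (1.78 to 1.94) for Tgfbr2 and 1.82 (1.77 to 1.88) for Thbs1. It was 1.82 (1.49 to 2.22) for Tgfb3, 1.46 (1.36 to 1.56) for Ltbp1 and 0.504 (0.465 to 0.547) for Smad7. Ratios over all cells hold the change in cell makeup as well as levels within cells, and the values by class differ from them in size and often in direction.

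**Figure D2:**
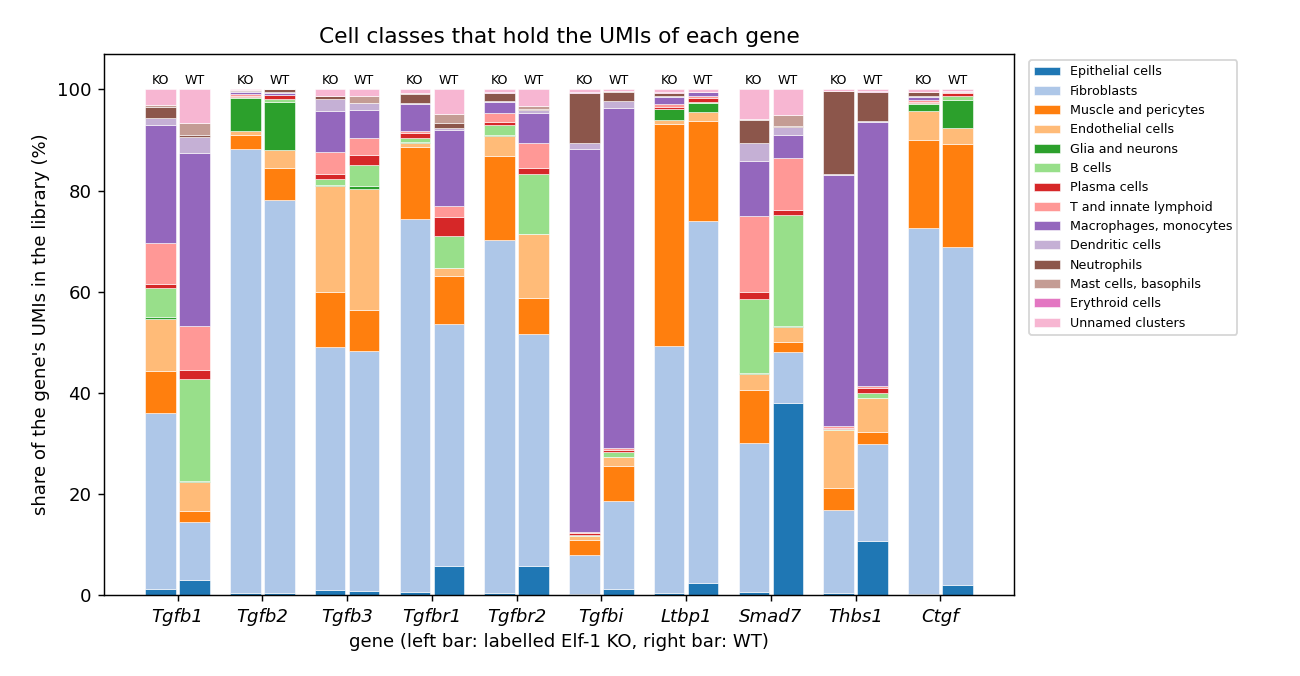
Share of each gene's UMIs held by each cell class, left bar KO-labelled and right bar WT for each gene. The vertical axis is percent of the gene's UMIs in kept cells of that library; macrophages hold 75.8% of KO-labelled and 67.3% of WT Tgfbi UMIs, and fibroblasts 73.8% of KO-labelled and 47.9% of WT Tgfbr1 UMIs.

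Between the libraries, 15 of the 61 pairs of gene and class with at least 50 UMIs were past 2-fold, in 7 of the 10 classes compared. Members with that many UMIs numbered 6 in epithelium, 10 in fibroblasts, 8 in muscle and pericytes and 7 in endothelium. There were 6 in B cells, 5 in plasma cells, 4 in T cells, 6 in macrophages, 4 in dendritic cells and 5 in neutrophils. In epithelial cells 3 genes were higher (Tgfb1, Tgfbr1 and Tgfbi) and 1 lower (Smad7), where 15.7% of all genes tested were higher and 19.5% lower. Fibroblasts had 0 higher and 2 lower (Tgfbi and Ltbp1), beside 3.36% higher and 13.4% lower of all genes. In smooth muscle cells and pericytes 0 were higher and 2 lower (Tgfbi and Ctgf), beside 6.05% and 10.9% of all genes. Endothelial cells had 1 higher (Thbs1) and 3 lower (Tgfbr2, Tgfbi and Smad7), beside 3.75% higher and 6.65% lower of all genes, with 7 members tested. T and innate lymphoid cells had 1 higher (Thbs1) and 0 lower, beside 4.81% and 3.34% of all genes. Macrophages and monocytes had 0 higher and 1 lower (Tgfbr2), beside 4.54% and 6.58%. Dendritic cells had 1 higher (Thbs1) and 0 lower, beside 12.0% and 8.24%. None was past 2-fold in B cells, where 4.76% of genes were higher and 4.57% lower, in plasma cells (5.07% and 5.78%) or in neutrophils (5.45% and 8.80%). The median log2 ratio of the members with at least 50 UMIs was 1.31 in epithelium, where that of all genes was -0.11, -0.64 in fibroblasts (all genes -0.34), 0.44 in muscle and pericytes (all genes -0.17) and 0.09 in endothelium (all genes -0.07). It was 0.09 in B cells (all genes 0.08), -0.05 in plasma cells (-0.05), 0.20 in T cells (0.04), -0.53 in macrophages (-0.11), 0.42 in dendritic cells (0.02) and -0.55 in neutrophils (-0.06).

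Scaling the classes by trimmed means (TMM) in place of their totals moved every log2 ratio of a class by a constant. That constant was -0.37 in epithelium, 0.38 in fibroblasts, 0.30 in muscle and pericytes, 0.20 in endothelium, -0.15 in B cells, 0.17 in macrophages and 0.38 in neutrophils, and under 0.1 in the other 3 classes. Of the genes past 2-fold, the share that was higher went with it. That share was 44.7% by totals and 26.8% by TMM in epithelium, 20.1% and 50.6% in fibroblasts, and 35.6% and 61.6% in muscle and pericytes. It was 36.1% and 57.8% in endothelium, 51.0% and 33.7% in B cells, 40.8% and 59.3% in macrophages, and 38.3% and 78.7% in neutrophils. All 15 differences kept their direction under TMM and 12 stayed past 2-fold. The 3 that did not were Ltbp1 in fibroblasts, Ctgf in muscle and pericytes and Tgfbr2 in macrophages. TMM was run by class, and the ratios by cluster below are by totals alone.

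**Figure D3:**
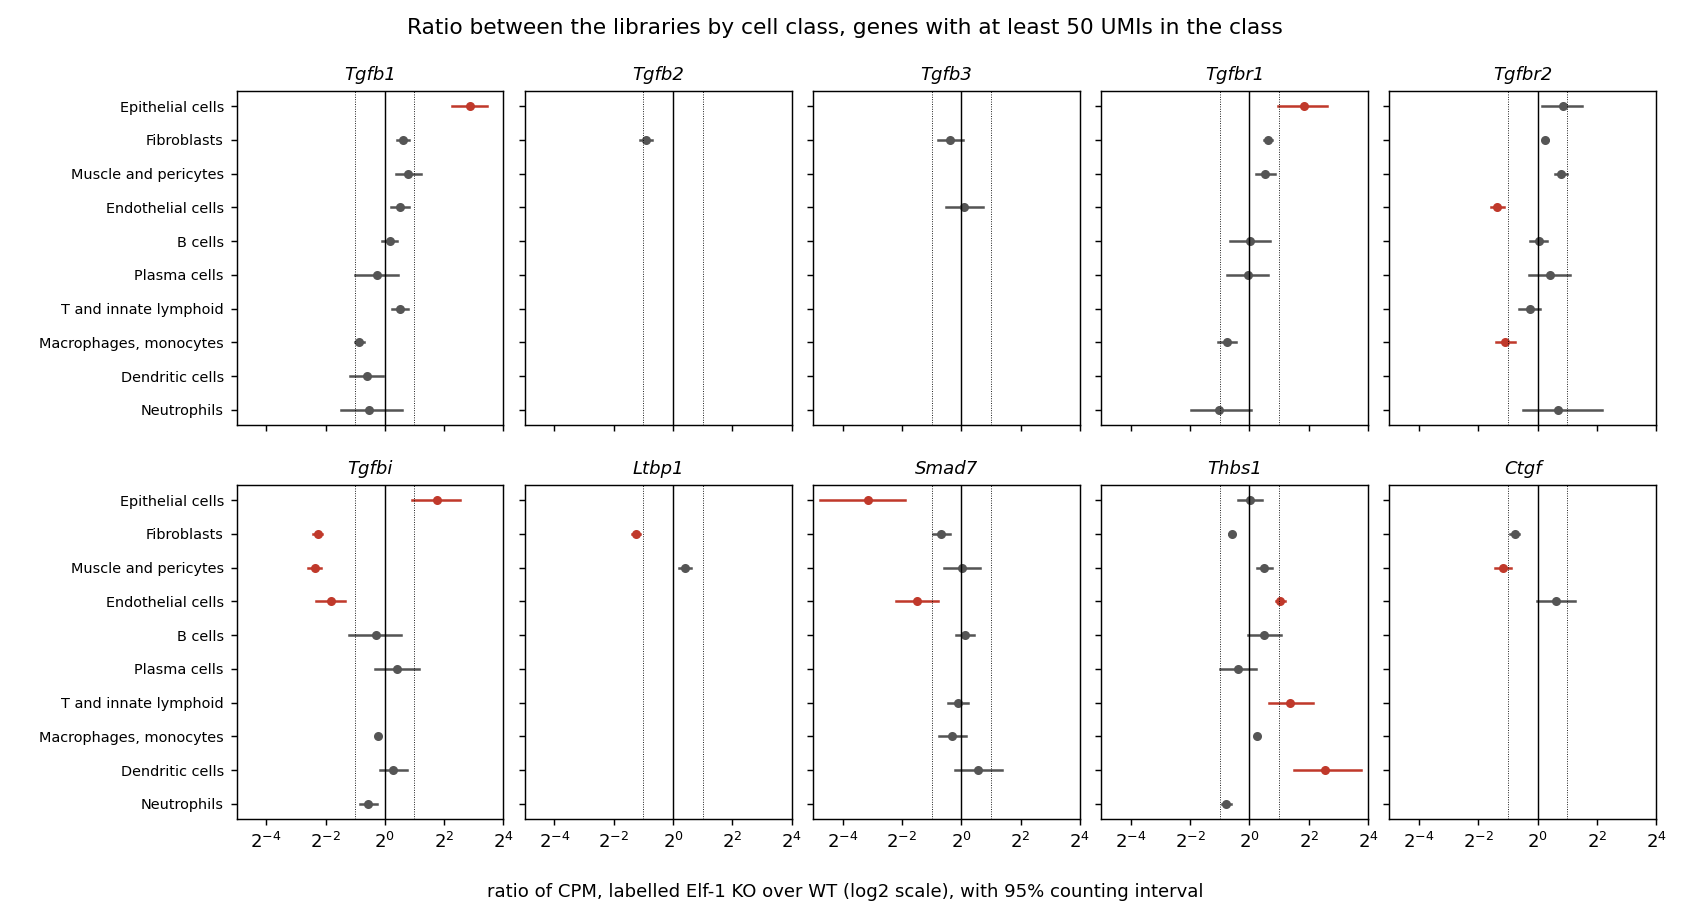
Ratio of KO-labelled over WT CPM for each gene (panels) and class (rows), on a log2 axis with 95% counting intervals. Red points are past 2-fold (dotted lines) with an interval that excludes 1; Tgfbi lies left of the lower line in fibroblasts, muscle and endothelium, and Thbs1 right of the upper line in endothelium, T cells and dendritic cells.

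Tgfbr2, Tgfbi and Ltbp1 were the genes lower in stromal or endothelial classes for which RefSeq promoter windows were at hand. Such windows matched 6 of the 10 genes. Shown are up to 250 bases upstream of the RefSeq start on GRCm38.p6, 5′ to 3′ on the gene's strand, as far as the first annotated exon. The Tgfbr2 window is chr9:116175364-116175613 (minus strand), the Tgfbi window chr13:56609336-56609522 (plus strand, with the last 63 bases left out) and the Ltbp1 window chr17:75005279-75005528 (plus strand, the first of its listed starts). Capitals mark CAGAC or its reverse complement GTCTG, the letters of the SMAD-binding CAGA box.
Tgfbr2: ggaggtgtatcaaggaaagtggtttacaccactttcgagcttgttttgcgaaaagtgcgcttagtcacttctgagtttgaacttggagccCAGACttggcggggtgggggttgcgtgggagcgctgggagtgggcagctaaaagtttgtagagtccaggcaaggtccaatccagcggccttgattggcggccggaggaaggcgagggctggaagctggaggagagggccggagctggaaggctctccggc
Tgfbi: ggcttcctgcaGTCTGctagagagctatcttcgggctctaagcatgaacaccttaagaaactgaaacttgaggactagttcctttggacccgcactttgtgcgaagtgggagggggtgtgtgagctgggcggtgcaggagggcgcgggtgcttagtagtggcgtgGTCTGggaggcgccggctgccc
Ltbp1: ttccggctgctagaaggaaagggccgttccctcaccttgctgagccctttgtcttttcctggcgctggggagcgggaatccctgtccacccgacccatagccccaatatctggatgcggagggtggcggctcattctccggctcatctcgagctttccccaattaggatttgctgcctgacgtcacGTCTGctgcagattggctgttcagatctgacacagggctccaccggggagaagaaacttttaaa
Tgfbr2 and Ltbp1 held 1 match each and Tgfbi 2, where 42.2% of 32851 promoter windows of 250 bases and 34.2% of windows of 187 bases held at least 1. Letters of an ETS site, the kind that Elf1 and related factors bind, were searched in the form CGGAAG or CTTCCG alone. Neither these nor letters of an AP-1 site (TGANTCA, its own reverse complement) were in any of the 3 windows. Such ETS and AP-1 letters were in 13.6% and 6.75% of all windows of 250 bases. The shorter GGAA or TTCC within that ETS form is in each of the 3 windows, and its share over all windows was not counted. Matches are letters only and were not tested as binding sites.

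Among the ligands, Tgfb1, the main immune isoform, was broadly present. In macrophages and monocytes it stood at 233 (218 to 250.0) CPM in KO-labelled cells and 424 (395 to 454) CPM in WT cells, a ratio of 0.550 (0.499 to 0.607), short of 2-fold. The difference lay mostly in the monocyte and inflammatory cluster 5, led by Chil3 and Ccr2, at 243 (220.2 to 268) CPM in KO-labelled cells and 602 (551 to 657) CPM in WT cells, a ratio of 0.404 (0.354 to 0.461). Resident macrophages of cluster 6, led by complement C1q genes and Mrc1, had 224 (203 to 247) CPM in KO-labelled cells and 286 (255 to 319.8) CPM in WT cells, a ratio of 0.784 (0.675 to 0.912). The KO-labelled clusters thus lay near each other while the WT clusters were apart. Neutrophil markers summed to 7358 CPM in KO-labelled macrophages and 730.3 CPM in WT macrophages, and their part in these values was not tested. Endothelial Tgfb1 was 242 (218 to 269) CPM in KO-labelled cells and 171 (143 to 203) CPM in WT cells, a ratio of 1.41 (1.16 to 1.74), with ratios of 1.397 in lymphatic and 1.36 in blood endothelium. Fibroblast Tgfb1 was 74.9 (70.7 to 79.2) CPM in KO-labelled cells and 49.1 (43.4 to 55.3) CPM in WT cells, a ratio of 1.53 (1.34 to 1.75). Within the inflamed fibroblast clusters the ratio was on the other side of 1, at 0.829 (0.634 to 1.10) in cluster 4 and 0.622 (0.460 to 0.856) in cluster 18. Those 2 clusters had more Tgfb1 than the homeostatic cluster 26, at 88.6 and 88.2 CPM in KO-labelled cells, and 107 and 142 CPM in WT cells, where WT cluster 26 had 40.1 (33.9 to 47.1) CPM.

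B cells and T and innate lymphoid cells, taken as classes, held Tgfb1 within 2-fold of each other in both libraries. B cells had 157 (136 to 179.7) CPM in KO-labelled cells and 140.1 (128 to 153) CPM in WT cells, and T and innate lymphoid cells 176 (156 to 198) CPM in KO-labelled cells and 124 (108 to 142) CPM in WT cells. Regulatory T cells, which use TGF-beta for their function and induction, had 268 (214 to 332) CPM in KO-labelled cells and 223 (147 to 325) CPM in WT cells. Intervals of the regulatory T cells overlapped between libraries. Innate lymphoid cells led by Il22 had 326 (211 to 482) CPM in KO-labelled cells, from 25 UMIs, with too few WT cells for a level. WT mast cells had 164 (124 to 213) CPM, with 19 KO-labelled mast cells too few for a level. Plasma cells (7.31 CPM in KO-labelled and 8.80 CPM in WT cells) and erythroid cells (2 and 1 UMIs) marked the low end. KO-labelled epithelial cells had 74.4 (52.7 to 102) CPM from 38 UMIs, against 10.2 (7.97 to 12.9) CPM in WT cells, a ratio of 7.28 (4.77 to 11.0). In those cells the neutrophil markers summed to 9557 CPM in KO-labelled and 279.8 CPM in WT cells, and the fibroblast markers to 6547 and 651 CPM. What part such RNA has in the epithelial ratios was not tested.

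Tgfb2 and Tgfb3, the isoforms better known from development, were rare and local. Tgfb2 had 169.6 (121 to 232) CPM in KO-labelled cells and 251 (180.1 to 340.4) CPM in WT cells in glia, and 32.4 (29.7 to 35.2) CPM in KO-labelled cells and 60.9 (54.5 to 67.7) CPM in WT cells in fibroblasts, a fibroblast ratio of 0.532 (0.463 to 0.612). Cluster 13, a small set of fibroblasts led by Ptn and Thbs2, held Tgfb2 at close to the glial level, 191 (150.1 to 241) CPM in KO-labelled cells and 187 (131 to 259.6) CPM in WT cells. In cluster 12, led by Il33 and Ptx3, it was 27.9 (22.8 to 33.9) CPM in KO-labelled cells and 82.3 (62.8 to 106) CPM in WT cells, a ratio of 0.340 (0.244 to 0.475), and in cluster 4 31.2 (27.5 to 35.3) CPM in KO-labelled cells and 23.9 (12.7 to 40.9) CPM in WT cells. Cluster 18 was on the other side of 1, at 23.0 (18.6 to 28.2) CPM in KO-labelled cells and 5.79 (0.702 to 20.9) CPM in WT cells. Its WT level came from 2 UMIs. WT cluster 26 had 60.6 (53.0 to 69.1) CPM and 224 of the 335 WT fibroblast UMIs, so the class ratio joined different clusters. KO-labelled levels ranged from 23.0 CPM in cluster 18 to 191 CPM in cluster 13. All other classes had under 30 UMIs in each library. Tgfb3 was highest in lymphatic endothelium (cluster 17), with 98.5 (76.3 to 125) CPM in KO-labelled cells and 118 (82.5 to 165) CPM in WT cells, a ratio of 0.832 (0.545 to 1.29). The lymphatic cluster held 67 of the 70 KO-labelled and all 35 WT endothelial Tgfb3 UMIs. Fibroblasts had 9.89 (8.42 to 11.5) CPM in KO-labelled cells and 12.7 (9.91 to 16.1) CPM in WT cells, with 16.0 (12.2 to 20.7) CPM in KO-labelled cells and 35.7 (23.3 to 52.2) CPM in WT cells in cluster 12, a ratio of 0.450 (0.279 to 0.745) there. Cluster 13 was also lower, at 28.8 CPM in KO-labelled and 57.3 CPM in WT cells, from 11 UMIs in each library. Clusters 4 and 18 lay the other way, with very few WT UMIs. Cluster 4 had 8.21 (6.36 to 10.4) CPM in KO-labelled cells and 3.68 (0.446 to 13.3) CPM in WT cells, from 67 and 2 UMIs. Cluster 18 had 25 KO-labelled and 0 WT UMIs.

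Ltbp1, which anchors the latent ligand in the matrix, belonged to muscle, fibroblasts and glia. Smooth muscle cells and pericytes had 305 (287 to 325) CPM in KO-labelled cells and 232 (205 to 262) CPM in WT cells, a ratio of 1.32 (1.15 to 1.51). Within that class cluster 15 had 327 (307 to 349) CPM in KO-labelled cells and 254 (192 to 331) CPM in WT cells and cluster 2, led by Rgs5 and Des, 91.5 (64.5 to 126) CPM in KO-labelled cells and 95.5 (57.5 to 149) CPM in WT cells. Their intervals overlapped between libraries in each cluster, while cluster 2 lay well below cluster 15 in both. Fibroblast Ltbp1 was 70.8 (66.8 to 75.0) CPM in KO-labelled cells and 169 (158 to 180.2) CPM in WT cells, a ratio of 0.419 (0.384 to 0.457), among the values past 2-fold. This ratio joined different clusters. WT cluster 26 alone had 215 (199.98 to 230.1) CPM and 793 of the 930 WT fibroblast UMIs, and it held 9 KO-labelled cells. In cluster 4 the level was 83.4 (77.3 to 89.9) CPM in KO-labelled cells and 86.6 (63.6 to 115) CPM in WT cells, a ratio of 0.964 (0.716 to 1.32), and in cluster 18 70.3 (62.4 to 78.9) CPM in KO-labelled cells and 31.9 (15.9 to 57.0) CPM in WT cells, a ratio of 2.21 (1.22 to 4.47). In cluster 12 the ratio was 0.616 (0.454 to 0.846), so the clusters differed in direction and none with 50 UMIs was 2-fold lower. Cluster 13, with 5 KO-labelled and 22 WT UMIs, was lower, at 13.1 (4.26 to 30.6) CPM in KO-labelled cells and 115 (71.8 to 173) CPM in WT cells, a ratio of 0.114 (0.0339 to 0.310). The class difference was short of 2-fold with the libraries clustered separately, at a log2 ratio of -0.59, and with each cluster given equal weight, at -0.53. Glia had 217 (161 to 287) CPM in KO-labelled cells and 141 (89.2 to 211) CPM in WT cells.

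Thbs1, an activator of latent TGF-beta and a target of the pathway, ranged widely between classes. Macrophages and monocytes had 2241 (2191 to 2291) CPM in KO-labelled cells and 1892 (1830.5 to 1954) CPM in WT cells, a ratio of 1.18 (1.14 to 1.23). In the monocyte and inflammatory cluster 5 it was 3443 (3354 to 3533) CPM in KO-labelled cells and 3679 (3550.2 to 3811) CPM in WT cells, a ratio of 0.936 (0.895 to 0.978). Resident macrophages had 1149.6 (1101 to 1199.8) CPM in KO-labelled cells and 507 (466 to 552) CPM in WT cells, a ratio of 2.27 (2.06 to 2.49). The KO-labelled resident cells therefore lay above the WT ones but still below the monocytes of either library. Neutrophils had 985 (947 to 1024) CPM in KO-labelled cells and 1684 (1523 to 1858) CPM in WT cells, a ratio of 0.585 (0.526 to 0.651). A Thbs1 UMI was seen in 43.5% of KO-labelled and 46.7% of WT neutrophils, at medians of 1943 and 1339 UMIs per cell. After thinning each cell to 1000 UMIs those shares were 34.8% and 38.8%, against 6.82% of KO-labelled and 11.9% of WT erythroid cells before thinning, a type not known to use the gene, at medians of 6754.5 and 9114.5 UMIs.

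Endothelial Thbs1 was 1223 (1167 to 1280.4) CPM in KO-labelled cells and 595 (542 to 652) CPM in WT cells, a ratio of 2.05 (1.85 to 2.28), or 1.04 on the log2 scale and 0.81, short of 2-fold, with each cell given equal weight. Blood endothelium of cluster 19, led by Plvap and Madcam1, carried this, with 1947 (1851 to 2046) CPM in KO-labelled cells and 701 (629 to 779.6) CPM in WT cells, a ratio of 2.78 (2.47 to 3.13). Lymphatic endothelium had 381 (336 to 430.2) CPM in KO-labelled cells and 419.7 (349 to 500.4) CPM in WT cells, a ratio of 0.907 (0.730 to 1.13). Neutrophil markers summed to 1847 CPM in KO-labelled and 253 CPM in WT endothelium, and macrophage markers to 942 and 540.1 CPM; their part in the endothelial ratio was not tested. Among muscle and pericyte cells, the Rgs5 and Des cluster 2 had 1279 (1171 to 1394) CPM in KO-labelled cells and 679 (569 to 804) CPM in WT cells, a ratio of 1.88 (1.56 to 2.29), and cluster 15 had 60.2 CPM in KO-labelled and 27.8 CPM in WT cells. In fibroblasts the class had 158 (152 to 165) CPM in KO-labelled cells and 240.2 (227 to 254) CPM in WT cells, a ratio of 0.660 (0.617 to 0.705), with a wider gap in the inflamed clusters. Cluster 4 had 61.9 (56.6 to 67.5) CPM in KO-labelled cells and 589 (527 to 658) CPM in WT cells, a ratio of 0.105 (0.0911 to 0.121), and cluster 18 25.2 (20.6 to 30.6) CPM in KO-labelled cells and 122 (87.7 to 164) CPM in WT cells, a ratio of 0.207 (0.144 to 0.305). Clusters 12 and 13 held more of it, with 480.4 and 606 CPM in KO-labelled cells and 735 and 693 CPM in WT cells, and ratios of 0.654 and 0.875. Blood vessels and inflamed fibroblasts thus stood on opposite sides of 1 for the same gene, a contrast that was not tested.

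In dendritic and T cells Thbs1 was low. Dendritic cells had 52 UMIs in 9 of 196 KO-labelled cells and 9 UMIs in 138 WT cells, 111 (83.3 to 146) CPM in KO-labelled cells and 19.0 (8.69 to 36.1) CPM in WT cells, a ratio of 5.86 (2.86 to 13.5). With each cell given equal weight the log2 ratio was -0.01, so the difference rested on few cells. T and innate lymphoid cells had 35.9 (27.3 to 46.4) CPM in KO-labelled cells and 13.9 (8.83 to 20.9) CPM in WT cells, a ratio of 2.58 (1.57 to 4.38). Fibroblast markers summed to 1945 CPM in KO-labelled and 458 CPM in WT T cells, and neutrophil markers to 1537 and 189 CPM, whose part was not tested. Thbs1 there was at 1.46 times the background bound in KO-labelled cells and 2.25 times in WT cells, the bound being the lowest mean UMIs per cell of the gene in any named class. With that bound subtracted or cells thinned, the T cell value was no longer past 2-fold. In epithelium Thbs1 was 109.6 (82.8 to 142) CPM in KO-labelled cells and 108 (101 to 116) CPM in WT cells.

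**Figure D4:**
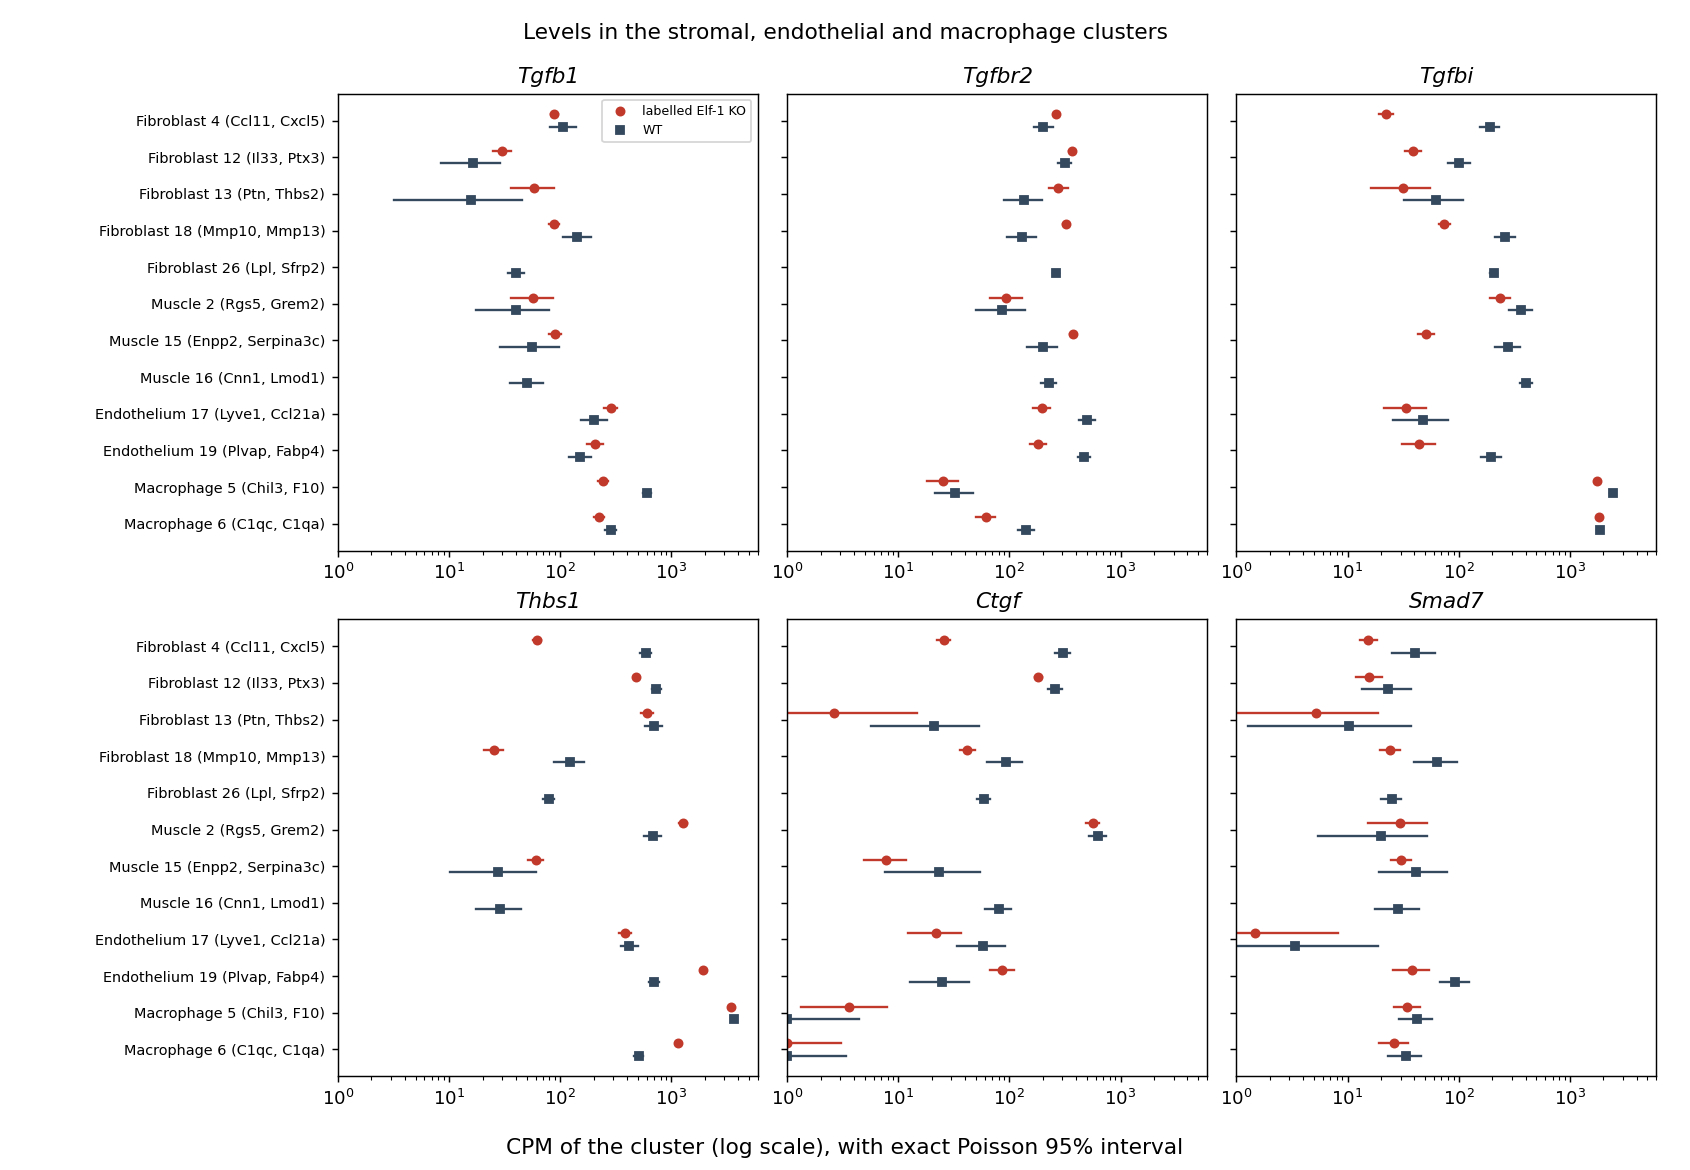
Levels of 6 genes in the stromal, endothelial and macrophage clusters, KO-labelled (red circles, upper) and WT (dark squares, lower). The horizontal axis is CPM on a log scale, lines are exact Poisson 95% intervals, values under 1 are drawn at 1, and clusters with under 20 cells in a library have no point. Tgfbi is left of its WT point in fibroblast clusters 4, 18 and 12 and muscle cluster 15, and Thbs1 is right of its WT point in blood endothelium (1947 and 701 CPM) and cluster 6.

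Tgfbr2 was highest in the stroma and the endothelium, and Tgfbr1 in the stroma. Tgfbr2, the ligand-binding type II receptor, had 188 (166 to 211) CPM in KO-labelled cells and 481 (434 to 532) CPM in WT cells in endothelium, a ratio of 0.390 (0.333 to 0.457). The ratio was 0.390 (0.307 to 0.497) in lymphatic and 0.385 (0.310 to 0.477) in blood endothelium, so both kinds of vessel were lower to a like degree. A Tgfbr2 UMI was seen in 38.7% of KO-labelled and 64.5% of WT endothelial cells, at medians of 2709 and 2557 UMIs, and in 14.3% and 37.8% after thinning. Erythroid cells had a Tgfbr2 UMI in 6 of 88 KO-labelled and 0 of 42 WT cells. Endothelial markers themselves summed to 16999.9 CPM in KO-labelled and 20241 CPM in WT cells of the class. Plasma cell markers summed there to 3917 CPM in KO-labelled and 23301 CPM in WT cells, and erythroid markers to 13464 and 354 CPM. The part of such RNA in the endothelial ratios was not tested. Resident macrophages had 61.3 (50.4 to 73.7) CPM in KO-labelled cells and 142 (120.1 to 166) CPM in WT cells, a ratio of 0.433 (0.336 to 0.556), and monocytes of cluster 5 25.3 (18.2 to 34.2) CPM in KO-labelled cells and 32.3 (21.3 to 47.0) CPM in WT cells. Over the macrophage class the ratio was 0.470 (0.377 to 0.586), which was short of 2-fold under TMM and with doublets kept, at log2 ratios of -0.92 and -0.62.

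In the stroma Tgfbr2 did not follow the endothelium. Fibroblasts had 300.4 (292 to 309) CPM in KO-labelled cells and 251 (238 to 265) CPM in WT cells, a ratio of 1.20 (1.13 to 1.27), and smooth muscle cells and pericytes 338 (319 to 358) CPM in KO-labelled cells and 196 (171 to 224) CPM in WT cells, a ratio of 1.72 (1.49 to 2.002). Inflamed cluster 18 had 321 (304 to 339) CPM in KO-labelled cells and 130.3 (95.1 to 174) CPM in WT cells, a ratio of 2.46 (1.83 to 3.39), and muscle cluster 15 374 (352 to 397) CPM in KO-labelled cells and 199 (144 to 268) CPM in WT cells, a ratio of 1.88 (1.39 to 2.61). The opposite sides of 1 in endothelium and in these clusters were not tested against each other. Tgfbr1, the signalling type I receptor, was 151 (146 to 158) CPM in KO-labelled cells and 97.2 (89.1 to 106) CPM in WT cells in fibroblasts, a ratio of 1.56 (1.42 to 1.71). Cluster 18 again had the wider gap, 151 (139.7 to 164) CPM in KO-labelled cells and 55.0 (33.1 to 85.9) CPM in WT cells, a ratio of 2.75 (1.75 to 4.60), while cluster 4 had 201 (191 to 211) CPM in KO-labelled cells and 140.0 (110.3 to 175) CPM in WT cells, a ratio of 1.43 (1.14 to 1.83). In cluster 12 the ratio was 0.952 (0.671 to 1.38). Endothelial Tgfbr1 was low, at 19.7 (13.2 to 28.3) CPM in KO-labelled cells and 21.7 (12.6 to 34.8) CPM in WT cells, from 29 KO-labelled and 17 WT UMIs. Macrophage Tgfbr1 was 52.2 (44.9 to 60.3) CPM in KO-labelled cells and 88.2 (75.4 to 103) CPM in WT cells, a ratio of 0.592 (0.477 to 0.734), and it was higher in resident cells (75.5 CPM in KO-labelled and 128 CPM in WT cells) than in monocytes (26.5 and 37.1 CPM). B cells had Tgfbr2 at 107 CPM in KO-labelled and 104 CPM in WT cells, and T cells at 76.8 and 92.0 CPM, with intervals of both ratios that included 1. KO-labelled epithelial cells had 17 Tgfbr1 UMIs and 33.3 (19.4 to 53.3) CPM, against 9.35 (7.20 to 11.9) CPM in WT cells, a ratio of 3.56 (1.96 to 6.15), with the other-cell markers given above for Tgfb1. With each cell given equal weight its log2 ratio was 0.40, short of 2-fold, and with cells thinned a Tgfbr1 UMI was seen in 2 of 57 KO-labelled and 8 of 800 WT cells, too few to call.

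Smad7, the feedback inhibitor, was carried by WT epithelium and by lymphocytes. Epithelial cells had 9.79 (3.18 to 22.8) CPM in KO-labelled cells and 85.6 (78.8 to 92.8) CPM in WT cells, from 5 KO-labelled and 586 WT UMIs, a ratio of 0.114 (0.0370 to 0.268). In the WT library it was 99.9 (91.7 to 109) CPM in absorptive cells and 26.3 (18.1 to 36.9) CPM in goblet cells, 2 kinds of cell that KO-labelled epithelium scarcely held. The epithelial log2 ratio was -3.13, and -1.62 with each cell given equal weight. With cells thinned to 1000 UMIs a Smad7 UMI was seen in 0 of 57 KO-labelled and 86 of 800 WT epithelial cells, a log2 ratio of -1.25 with the count of 0 taken as 3. Blood endothelium had 37.9 (25.6 to 54.2) CPM in KO-labelled cells and 92.3 (67.3 to 123) CPM in WT cells, a ratio of 0.411 (0.250 to 0.667), and lymphatic endothelium 1 UMI in each library. The endothelial difference was no longer past 2-fold with cells thinned, at a log2 ratio of -0.83. Inflamed fibroblasts of clusters 4 and 18 both had a ratio of 0.381, at 15.4 (12.9 to 18.4) CPM in KO-labelled cells and 40.5 (25.4 to 61.3) CPM in WT cells in cluster 4 and 24.3 (19.7 to 29.5) CPM in KO-labelled cells and 63.7 (39.9 to 96.5) CPM in WT cells in cluster 18. Over all fibroblasts, where most WT cells were in other clusters, it was 0.626 (0.513 to 0.766). In lymphocytes the intervals of the ratio included 1. B cells had 109.8 (92.4 to 129) CPM in KO-labelled cells and 100.1 (89.7 to 111) CPM in WT cells, a ratio of 1.10 (0.895 to 1.34), with 0.981 (0.644 to 1.53) in cluster 10 and 1.24 (0.917 to 1.66) in cluster 11, and T and innate lymphoid cells 91.0 (76.9 to 107) CPM in KO-labelled cells and 97.5 (83.0 to 114) CPM in WT cells, a ratio of 0.934 (0.742 to 1.18).

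Tgfbi, a secreted matrix protein named for its induction by TGF-beta, was a macrophage transcript first. Macrophages and monocytes had 1807 (1762 to 1852) CPM in KO-labelled cells and 2105 (2041 to 2171) CPM in WT cells, a ratio of 0.858 (0.825 to 0.893), with 0.991 (0.937 to 1.05) in resident cells and 0.730 (0.689 to 0.772) in monocytes. Neutrophils had 317 (296 to 339.8) CPM in KO-labelled cells and 466 (383 to 561) CPM in WT cells, a ratio of 0.682 (0.558 to 0.840), and dendritic cells 206 (167 to 251) CPM in KO-labelled cells and 169 (134 to 210.3) CPM in WT cells. In the stroma Tgfbi was lower in KO-labelled cells in each class and in the clusters named here. Fibroblasts had 39.5 (36.5 to 42.7) CPM in KO-labelled cells and 190.1 (179 to 202) CPM in WT cells, a ratio of 0.208 (0.188 to 0.229), or -2.27 on the log2 scale, where all genes in fibroblasts had a median of -0.34. The ratio was 0.118 (0.0918 to 0.151) in cluster 4, 0.283 (0.223 to 0.361) in cluster 18 and 0.384 (0.288 to 0.516) in cluster 12. In the homeostatic WT cluster 26 the level was 207 (193 to 223) CPM, near that of the WT cells of cluster 4, 189.7 (155 to 230.1) CPM. The gap was thus present among cells of the same cluster. Smooth muscle cells and pericytes had 71.8 (63.1 to 81.4) CPM in KO-labelled cells and 371 (336 to 409) CPM in WT cells, a ratio of 0.193 (0.164 to 0.227), with 0.183 (0.135 to 0.251) in cluster 15 and 0.649 (0.473 to 0.894) in cluster 2. Blood endothelium had 44.3 (30.8 to 61.6) CPM in KO-labelled cells and 197 (159 to 240.3) CPM in WT cells, a ratio of 0.225 (0.148 to 0.334), and lymphatic endothelium 33.8 (21.4 to 50.7) CPM in KO-labelled cells and 47.4 (25.9 to 79.5) CPM in WT cells, a ratio of 0.714 (0.352 to 1.5001). Over the endothelium the log2 ratio was -1.83, and -0.86, short of 2-fold, with each cell given equal weight. Macrophage markers, which mark the richest source of Tgfbi, summed to 2026 CPM in KO-labelled and 3437 CPM in WT fibroblasts, 1843 and 1889.7 CPM in muscle and pericytes, and 942 and 540.1 CPM in endothelium. The part of such RNA in the stromal ratios was not tested. Epithelial Tgfbi had 18 KO-labelled and 71 WT UMIs, at 35.2 (20.9 to 55.7) CPM in KO-labelled cells and 10.4 (8.10 to 13.1) CPM in WT cells, a ratio of 3.40 (1.91 to 5.76) that turned to -0.31 on the log2 scale with each cell given equal weight. With cells thinned a Tgfbi UMI was seen in 0 of 57 KO-labelled and 12 of 800 WT cells, which gives no direction.

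Ctgf, a matricellular protein induced by TGF-beta and by mechanical load, reached its highest level of any cluster in the Rgs5 and Des cluster 2 of muscle and pericytes, 564 (493 to 642) CPM in KO-labelled cells and 624 (519 to 743) CPM in WT cells, a ratio of 0.905 (0.724 to 1.14). Cluster 15 had 23 KO-labelled and 5 WT UMIs, at 7.78 and 23.1 CPM. Smooth muscle cells and pericytes as a class had 73.9 (65.0 to 83.6) CPM in KO-labelled cells and 166 (143 to 192) CPM in WT cells, a ratio of 0.444 (0.366 to 0.540). The class ratio joined clusters in different numbers, and with finer clusters it was 0.00 on the log2 scale. It was -0.16 with the libraries clustered separately, -0.18 with each cluster and -0.89 with each cell given equal weight. In fibroblast cluster 4 Ctgf was 25.7 (22.4 to 29.4) CPM in KO-labelled cells and 304 (259 to 354) CPM in WT cells, a ratio of 0.0846 (0.0687 to 0.104), and in cluster 18 41.9 (35.9 to 48.7) CPM in KO-labelled cells and 92.7 (63.4 to 131) CPM in WT cells, a ratio of 0.452 (0.309 to 0.682). The cluster 4 gap rested on few cells, since a Ctgf UMI was seen in 89 of 1345 KO-labelled cells with 210 UMIs and in 11 of 105 WT cells with 165 UMIs. Those shares, 6.62% of KO-labelled and 10.5% of WT cells, were far closer than the levels, and thinned they were 1.75% and 3.88%, with overlapping intervals. Few cells also carried the WT level of cluster 18, with 32 UMIs in 9 of 65 cells, against 171 UMIs in 56 of 898 KO-labelled cells. Thinned, the cluster 18 shares were 2.88% of KO-labelled and 7.14% of WT cells, again with overlapping intervals. Cluster 12 kept 183 (169 to 197) CPM in KO-labelled cells and 258 (222 to 297) CPM in WT cells, a ratio of 0.708 (0.601 to 0.837). Blood endothelium was on the other side of 1, with 86.0 (66.8 to 109) CPM in KO-labelled cells and 24.6 (12.7 to 43.0) CPM in WT cells, a ratio of 3.50 (1.88 to 7.10) from 68 KO-labelled and 12 WT UMIs. Those UMIs lay in 29 of 185 KO-labelled and 5 of 129 WT cells, so this gap too rested on few cells. Lymphatic endothelium was lower, with 22.1 (12.3 to 36.4) CPM in KO-labelled cells and 57.5 (33.5 to 92.1) CPM in WT cells, from 15 and 17 UMIs. Glia had 82.6 (49.7 to 129) CPM in KO-labelled cells and 312 (232 to 410.4) CPM in WT cells, from 55 KO-labelled and 33 WT cells.

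Other genes of the pathway were read from lists of latency and activation genes, further receptors, SMADs and their partners, and further targets. In fibroblasts 4 were 2-fold higher and 7 lower of 48 with at least 50 UMIs, where 3.36% of all genes were higher and 13.4% lower. Lower were the targets Postn (periostin), with 295 CPM in KO-labelled cells and 1288 CPM in WT cells, a ratio of 0.229 (0.221 to 0.238); Pmepa1, a negative regulator of the pathway, with a ratio of 0.284; and Cyr61 (Ccn1), a relative of Ctgf, with 0.338. Higher were the cell cycle inhibitor Cdkn1a (2.81), the collagen cross-linker Lox (2.32) and the activating integrin chain Itgb8 (2.13). Targets therefore stood on both sides of 1 in fibroblasts. Of the 42 genes with 50 UMIs in muscle and pericytes 11 were higher and 3 lower, beside 6.05% and 10.9% of all genes. The lower ones were Cyr61 (0.302), Postn (0.374) and Tgfb1i1 (0.397), and among the higher ones were Dcn, a matrix proteoglycan and fibroblast marker (5.42), Cdkn1a (4.07) and Itgb8 (3.88).

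Endothelial cells had 3 higher and 2 lower of 34, beside 3.75% and 6.65% of all genes. The TGF-beta family receptor Acvrl1, which serves endothelial cells, had 109 CPM in KO-labelled cells and 273 CPM in WT cells, a ratio of 0.398 (0.322 to 0.491), and the matrix gene Fn1 a ratio of 0.419. Dcn (7.84) and the proprotein-cleaving protease gene Furin (2.01) were among the higher ones. In T and innate lymphoid cells 8 were higher and 2 lower of 30, beside 4.81% and 3.34% of all genes. Itgae, the integrin chain of intraepithelial lymphocytes that TGF-beta induces, had 43.4 CPM in KO-labelled cells and 133 CPM in WT cells, a ratio of 0.326 (0.245 to 0.428), and Lrrc32, which holds latent TGF-beta on regulatory T cells, a ratio of 0.487; the protease inhibitor gene Timp3 was higher (2.97). The T class differed in makeup between the libraries, as given above, and its regulatory T cells numbered 122 KO-labelled and 52 WT cells. These values were not read by subcluster, and the part of makeup in them was not tested. Dendritic cells had 3 higher and 1 lower of 13, beside 12.0% and 8.24% of all genes. Itgae, a marker of a dendritic cell subset, had a ratio of 0.156 and Tsc22d1 of 2.98. Macrophages had 3 higher and 2 lower of 36, beside 4.54% and 6.58% of all genes. Itgb5 had a ratio of 0.355 and the transcription factor Bhlhe40 0.459, while Timp3 (2.40) and Lox (7.69, from 56 KO-labelled and 4 WT UMIs) were higher. In B cells 6 were higher and 0 lower of 26 (all genes 4.76% and 4.57%), with Pmepa1 at 3.32, and in plasma cells 4 and 0 of 19 (all genes 5.07% and 5.78%), with Smad4 at 2.77. In epithelium they were 14 and 6 of 33 (all genes 15.7% and 19.5%), with Dcn at 25.6, Lox at 24.1 and Cdkn2b at 0.0427 (0.00108 to 0.240). That Lox ratio came from 36 KO-labelled and 20 WT UMIs, and the Cdkn2b ratio from 1 KO-labelled and 314 WT UMIs. In neutrophils 3 were higher and 2 lower of 19 (all genes 5.45% and 8.80%), with Acvrl1 at 4.44 (2.02 to 12.2) and Cdkn1a at 0.317. Neutrophil Acvrl1 had 295 KO-labelled and 6 WT UMIs. Dcn was among the higher genes in B cells (6.57), plasma cells (5.48), T cells (8.86), macrophages (7.43), dendritic cells (9.86) and neutrophils (7.41), and Mmp14, a protease gene with its highest CPM in fibroblasts, in all of these but macrophages. Fibroblast markers summed to 1918 CPM in KO-labelled and 567 CPM in WT B cells, and their part in these counts was not tested.

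The genes whose levels were most like each member over 11 classes in both libraries (22 points, 11248 genes, Pearson's r of log2(CPM + 10)) are given as a description. They were Nfkb1 (r = 0.914) for Tgfb1, Col4a5 (r = 0.964) for Tgfb2, Eng (r = 0.964) for Tgfb3 and Mmp11 (r = 0.971) for Ltbp1. For Tgfbr1 the nearest was Tmem38b (r = 0.894), for Tgfbr2 Strn3 (r = 0.926) and for Smad7 Kxd1 (r = 0.939). Nearest to Tgfbi was Sirpa (r = 0.903), to Thbs1 Noct (r = 0.903) and to Ctgf Jam3 (r = 0.977). Points of a library share their depth and free RNA.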

How the data were processed

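Single-cell RNA-seq was measured in 1 library labelled Elf-1 KO and 1 WT library, each of cells pooled from 3 mice, with Singleron GEXSCOPE chips. Whole-number UMI counts were deposited for each gene and barcode, unscaled to judge by the values, and the lowest barcode total was 500 UMIs. The submitters' processing notes name cutadapt 1.17, STAR 2.6.1a, featureCounts 2.0.1 and GRCm38. The 10 genes and the gene lists were chosen with earlier results of these data known, and clusters were named by a rule made with the clusters in view.

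Barcodes were kept from 500 UMIs and 200 genes upward, with mitochondrial UMIs of 25% or less. Doublets were called by scrublet in scanpy 1.11.5; it removed 260 KO-labelled barcodes. It marked 0.025% of WT barcodes, so the 5% with the highest scores, 406, were removed there. Both libraries were clustered together (2000 variable genes without the 10 members, 30 components, 15 neighbours, Leiden resolution 1). A cluster took a class name when its 100 leading genes held 3 or more markers of that class, and more than of any other, with 1 or more in the leading 10, where no other class could exceed it. Clusters 1, 9 and 20, with 249 KO-labelled and 370 WT cells, stayed unnamed.

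UMIs were summed over the cells of a class (at least 20 cells for a level, 50 in each library for a ratio by class) and given as CPM with exact Poisson intervals; cluster ratios needed 30 cells in each library. Ratios carry exact conditional binomial intervals at 95% (scipy 1.17.1, numpy 2.4.6, python 3.11.15), and a count of 0 was taken as 3. TMM factors came from edgeR 4.0.16. The counting was tested on simulated data. All 10 members are described; of the lists, up to 3 highest and 3 lowest ratios past 2-fold in a class could be named, and 1 nearest gene of 3 is named for each member. Pooling 3 mice into 1 library leaves the spread between mice unmeasured.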

Additional observations from a re-analysis of the deposited data

Results flagged for a closer look

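Tgfbi lay on opposite sides of 1 in different classes. Its log2 ratio of KO-labelled over WT was 1.77 in epithelial cells, from 18 KO-labelled and 71 WT UMIs, and -2.37 in smooth muscle cells and pericytes, from 245 KO-labelled and 413 WT UMIs. With 1 library per group the difference between these classes was not tested. The epithelial value was -0.31 with each cell given equal weight.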

How the results depend on the processing

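No paired analysis was possible because each group had 1 library. Of the 15 differences past 2-fold, 12 stayed past it under TMM scaling, 15 with mitochondrial UMIs limited to 10%, 15 without cells whose barcode is found in both libraries (an alternative added after the data were seen), 14 with the background bound subtracted, 10 with cells thinned to 1000 UMIs and 9 with each cell given equal weight. Of 14 that could be read, 13 stayed with doublets kept and 13 at Leiden resolution 2, and of 15, 13 stayed with the libraries clustered separately. Equal weight per cluster kept 8 of 10. Directions turned in 3 cases: Tgfbi in epithelium (log2 -0.31) and Thbs1 in dendritic cells (-0.00797) with equal weight per cell, and Ctgf in muscle and pericytes at resolution 2 (0.00388). The causes were not tested.

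Counts of members past 2-fold moved as follows. Under TMM they were 1 higher and 1 lower in fibroblasts, 2 higher and 1 lower in muscle and pericytes, and 0 lower in macrophages. Of all genes, 747 were then higher and 730 lower of 11393 in fibroblasts, and 777 and 484 of 7746 in muscle and pericytes. In macrophages they were 488 and 335 of 7510. For the other settings no share of all genes is given here, so their counts cannot be set against a background. At a fold of 1.5 they were 2 higher and 6 lower in fibroblasts, 2 higher in muscle, 3 lower in macrophages, and 1 lower in dendritic cells and in neutrophils. With no minimum of UMIs they were 5 higher in epithelium, 5 lower in endothelium, 2 higher and 1 lower in T cells and 1 lower in neutrophils. Thinned, they were 1 higher in epithelium and in muscle, 2 higher in endothelium, and 0 higher in T and dendritic cells. Equal weight per cell gave 1 lower in muscle and in neutrophils and 0 higher in dendritic cells. Subtracting the bound gave 1 lower in B cells, T cells and neutrophils and 0 higher in T cells. Separate clustering gave 1 lower in fibroblasts and 1 higher and 1 lower in muscle, resolution 2 gave 1 higher and 1 lower in muscle, and equal weight per cluster 1 lower in muscle. Doublets kept gave 0 lower in macrophages and 1 higher in neutrophils.

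Counts of the other pathway genes moved too. TMM gave 3 lower in fibroblasts, 5 higher and 1 lower in macrophages, 5 higher in dendritic cells, and 5 higher and 1 lower in neutrophils. Of all genes under TMM, 360 were higher and 211 lower of 2779 in dendritic cells, and 533 and 144 of 3853 in neutrophils. Those of fibroblasts and macrophages are given above. The counts of the other settings again stand without a share of all genes. A minimum of 10 UMIs gave 8 higher and 2 lower in plasma cells, 13 higher in T cells, 4 lower in macrophages, and 7 higher and 2 lower in dendritic cells. Doublets kept gave 1 lower in endothelium and in T cells, 1 higher and 9 lower in plasma cells and 13 higher in neutrophils. Tgfb2, Tgfb3, Ltbp1 and Ctgf had at least 50 UMIs in only 1, 2, 2 and 3 of the 10 classes, so few class ratios could be read for them.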
